A study of Homo sapiens with 6 samples.

Results

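Chaperones are proteins that bind unfolded chains and help them to fold, and co-chaperones steer them to their clients. The 64 genes described here are the HSP70, HSP110, HSP90 and small heat shock protein genes, the CCT ring and the DNAJ co-chaperones, measured by RNA-seq in HEK293 cells after knockdown of the long noncoding RNA *HSALNG0134318*. They were taken by gene symbol from a table of 26485 gene names, leaving out *HSPA5*, *DNAJB9* and *DNAJC3*, genes of the endoplasmic reticulum. Of 75 names that matched, 64 had at least 10 counts in every culture and are called members below. The 11 names under that minimum were *DNAJA4*, *DNAJB3*, *DNAJB7*, *DNAJB8*, *HSPA12B*, *HSPA6*, *HSPA7*, *HSPB2*, *HSPB3*, *HSPB7* and *HSPB9*. Just inside the minimum stood *DNAJB13*, with a mean of 13.8 normalized counts. Just outside it stood *DNAJA4*, with 5 counts in control replicate 3 and 18 to 33 in the other cultures. All 64 members were among the 14877 genes kept by the filter on low counts, as were 3 of the 11 others.

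The label of these genes as cytosolic held for only part of them. *HSPD1*, *HSPE1*, *HSPA9* and the J proteins *DNAJA3*, *DNAJC11*, *DNAJC15*, *DNAJC19*, *DNAJC28* and *DNAJC30* are known from mitochondria. *HSPA13*, *DNAJB11*, *DNAJB12*, *DNAJC1*, *DNAJC10*, *DNAJC16* and *DNAJC25* are known from the endoplasmic reticulum, and *DNAJC8*, *DNAJC9* and *DNAJC17* from the nucleus. *HSPB11* carries the name of a small heat shock protein and encodes a subunit of the intraflagellar transport machinery of cilia.

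HEK293 is an established line of human embryonic kidney cells, and the knockdown group consisted of 3 cultures transiently transfected with a Smart Silencer, which combines antisense oligonucleotides with siRNAs (small interfering RNAs) against *HSALNG0134318*. The 3 control cultures are labelled NC in one field and WT in another, and the agent they received is not given in the sources used here. The cultures are described as biologically independent, all come from a single cell line, and knockdown replicates 1, 2 and 3 carry the culture numbers 1, 4 and 5, control replicates 1, 2 and 3 the numbers 10, 11 and 1. The silenced transcript was not among the gene names of the table, so the knockdown could not be checked in these counts.

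Totals ran from 13900965 to 16869948 counts per culture. Of the 6 renal markers searched, *PAX2*, *LHX1*, *KRT8*, *KRT18* and *VIM* were expressed and *PAX8* did not exceed 6 counts, while the 5 markers of differentiated kidney were under 10 counts in every culture. Among 6 markers of other cells, *COL1A1* alone passed, with 571 to 699 counts. The 3 controls differed more among themselves than the 3 knockdown cultures did: the median chi-square per gene was 2.54 to 5.39 between controls and 0.83 to 1.88 between knockdown cultures. Results that changed with 1 culture are given with and without it. In bulk RNA, fewer cells of a kind and less RNA per cell cannot be told apart.

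HSP70 proteins hold short greasy stretches of a chain in a cycle driven by ATP, J proteins of the DNAJ families bring them their clients and start the ATP cleavage, and HSP110 proteins exchange the nucleotide. HSP90 acts later on kinases and receptors, the CCT ring folds actin and tubulin in a closed chamber, and small heat shock proteins keep aggregates soluble. When unfolded protein builds up, heat shock factor 1 (*HSF1*) binds repeated GAA and TTC units in promoters and raises transcription of many of these genes at once. Beyond stress, many of them are transcribed at high rates in dividing cells.

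The promoter sequences of the heat shock genes are shown because genes with negative and genes with positive log2 fold changes carried the same kind of element. They are taken from RefSeq on GRCh38.p14, in windows of 90 bases before the transcript start, written from 5′ to 3′ on the strand of the gene. Capitals mark runs of 3 or more units, GAA and TTC in alternation with any 2 bases between them, or, in *HSPA1A* and *HSPA1B*, which hold no such run, the run of 2 units. Runs of 2 units elsewhere in the other windows are left in lower case.
*HSPA1A*, chr6:31815396-31815485, plus strand: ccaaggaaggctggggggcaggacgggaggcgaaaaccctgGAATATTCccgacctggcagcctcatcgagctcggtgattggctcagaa
*HSPA1B*, chr6:31827592-31827681, plus strand: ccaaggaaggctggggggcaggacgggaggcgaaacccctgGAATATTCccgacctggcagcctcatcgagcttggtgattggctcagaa
*HSPA8*, chr11:123062141-123062230, minus strand: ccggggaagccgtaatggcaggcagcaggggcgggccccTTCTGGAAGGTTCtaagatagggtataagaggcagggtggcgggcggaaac
*HSP90AA1*, chr14:102087082-102087171, minus strand: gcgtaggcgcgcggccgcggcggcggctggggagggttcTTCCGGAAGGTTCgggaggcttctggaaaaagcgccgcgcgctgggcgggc
*HSP90AB1*, chr6:44247766-44247855, plus strand: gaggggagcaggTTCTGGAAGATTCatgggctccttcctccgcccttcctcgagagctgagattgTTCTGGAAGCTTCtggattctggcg
*HSPD1*, chr2:197500001-197500090, minus strand: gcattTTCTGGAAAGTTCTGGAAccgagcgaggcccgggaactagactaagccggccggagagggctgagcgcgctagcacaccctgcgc
*CHORDC1*, chr11:90223054-90223143, minus strand: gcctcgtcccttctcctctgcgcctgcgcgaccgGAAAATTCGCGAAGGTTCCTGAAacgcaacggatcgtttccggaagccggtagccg

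The windows of *HSPA1A* and *HSPA1B* were identical at 88 of 90 bases and held a run of 2 units, whereas the other 5 held runs of 3 units or more. Among 27305 genes with a RefSeq promoter, 3 units in a row (GAA, TTC, GAA or TTC, GAA, TTC, on either strand) occurred in 0.608%. Of the 64 members, 58 had a promoter in this set and 6 of them, or 10.3%, held the element. *HSPA8*, *HSP90AA1*, *HSP90AB1*, *HSPD1* and *DNAJA1*, all of the heat shock list, accounted for 5 of the 6, and the last was *DNAJB6*. The shorter element of 2 units, which every longer element contains, occurred in 16.2% of all genes, in 34.5% of the members and in 83.3% of the 12 measured genes of the heat shock list. A match describes letters in a window, and binding of a factor was not measured.

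Genes were called where edgeR's quasi-likelihood test with Benjamini-Hochberg adjustment gave an adjusted p under 0.05, and by this rule 3 of the 64 members were higher after knockdown and 0 were lower. The 3 were *HSPD1*, the mitochondrial HSP60, *DNAJC30*, a J protein of mitochondria, and *DNAJB12*, a J protein in the membrane of the endoplasmic reticulum. They make up 4.69% of the members, against 10% of all genes tested that were called, 4.64% lower and 5.40% higher. At an unadjusted p under 0.05, 10 members were lower and 8 were higher in edgeR, which is 28.1% of the members against 26.9% of all genes tested. DESeq2's Wald test called 3 members lower and 4 higher, or 10.9% against 11.9% of all genes tested. With limma-voom 0 were lower and 3 higher, or 4.69% against 9.91% of all genes tested. The median log2 fold change of the members was -0.04, against -0.02 over all genes tested, and 56 of 64 lay within 0.5 of 0.

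The 3 knockdown values lay wholly below the 3 control values in 12 members and wholly above them in 8. Together these are 31.25% of the members, against 32.2% of all genes tested, 15.8% lower and 16.4% higher. Members took 1.32% ± 0.049 of all counts after knockdown and 1.25% ± 0.049 in the controls (SD, n = 3). Of this difference of 0.071 percentage points, 0.044 remained without *HSP90AB1*, the most abundant member.

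The stress-inducible HSP70 gene *HSPA1A* had the most negative log2 fold change of all members, and neither it nor any other HSP70 gene was called. In *HSPA1A* and its neighbour *HSPA1B*, control replicate 3 lay among the knockdown cultures. *HSPA1A* (chromosome 6, 31815543 to 31817946 in GENCODE release 44 on hg38, plus strand) encodes the inducible HSP70. It had 1984, 1135 and 1054 normalized counts in knockdown replicates 1, 2 and 3 and 2832, 3963 and 1294 in control replicates 1, 2 and 3. The groups overlapped, since control replicate 3 was below knockdown replicate 1. Its log2 fold change was -0.95 (standard error 0.42, edgeR adjusted p of 0.21, 95% interval -1.96 to 0.05). *HSPA1B* (chromosome 6, 31827738 to 31830254, plus strand) encodes a nearly identical protein from the neighbouring gene. Its normalized counts were 3032, 1882 and 1720 after knockdown and 4378, 4969 and 1970 in the controls, and the log2 fold change was -0.77 (standard error 0.37, edgeR adjusted p of 0.24). Reads of these 2 genes may be split between them by the counting, and annotated exons of a noncoding RNA on the same strand cover 36.6% of the exon bases of *HSPA1B*. Summed as 1 gene, a setting chosen after the values were seen, they gave -0.84 on the log2 scale (standard error 0.39, edgeR adjusted p of 0.22).

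*HSPA8* (chromosome 11, 123057489 to 123063230, minus strand), the constitutive HSP70 and the most counted gene of its family, showed the same arrangement of cultures at a higher level. It had 11264, 7730 and 7538 normalized counts in knockdown replicates 1, 2 and 3 and 13868, 15684 and 10342 in control replicates 1, 2 and 3. Only knockdown replicate 1 and control replicate 3 crossed. Between groups, the log2 fold change was -0.59 (standard error 0.18, edgeR adjusted p of 0.076). The adjusted p was 0.0066 in DESeq2, 0.029 in edgeR without knockdown replicate 1 and 0.020 without control replicate 3. *HSPA8* was called in 4 of the 14 alternative settings and not in the other 10. Without control replicate 2 its log2 fold change was -0.45 (edgeR adjusted p of 0.15), and without knockdown replicate 2 it was -0.50 (edgeR adjusted p of 0.23). *HSPA1L*, another HSP70 gene of the same cluster on chromosome 6, was named after its values were seen and had few counts. Its values were 42.4, 25.0 and 20.4 after knockdown and 63.3, 65.2 and 17.5 in the controls (log2 fold change -0.73, edgeR adjusted p of 0.33), and the log2 fold change was -1.10 without knockdown replicate 1, -0.45 without control replicate 2 and -1.11 (adjusted p of 0.043) without control replicate 3. The remaining HSP70 genes, *HSPA2*, *HSPA12A* and *HSPA14*, had log2 fold changes from -0.08 to 0.06.

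From the highest to the lowest culture, *HSPA1A*, *HSPA1B* and *HSPA8* shared the order of control 2, control 1, knockdown 1, control 3, knockdown 2 and knockdown 3. The order was read off these genes, of which the first pair may share reads, and *HSPB8*, *DNAJA3* and *DNAJC5* had it too. Within the controls, the highest value was 3.06 times the lowest in *HSPA1A*, 2.52 times in *HSPA1B* and 1.52 times in *HSPA8*, against 1.88, 1.76 and 1.49 times within the knockdown group. Among all genes tested, the control standard deviation of *HSPA1A* on the log2 scale, 0.83, stood at percentile 97.7 and that of *HSPA1B*, 0.72, at percentile 96.3. Controls 2, 1 and 3 from high to low was also the order of 19.9% of all genes tested and of 15 members.

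**Figure D1:**
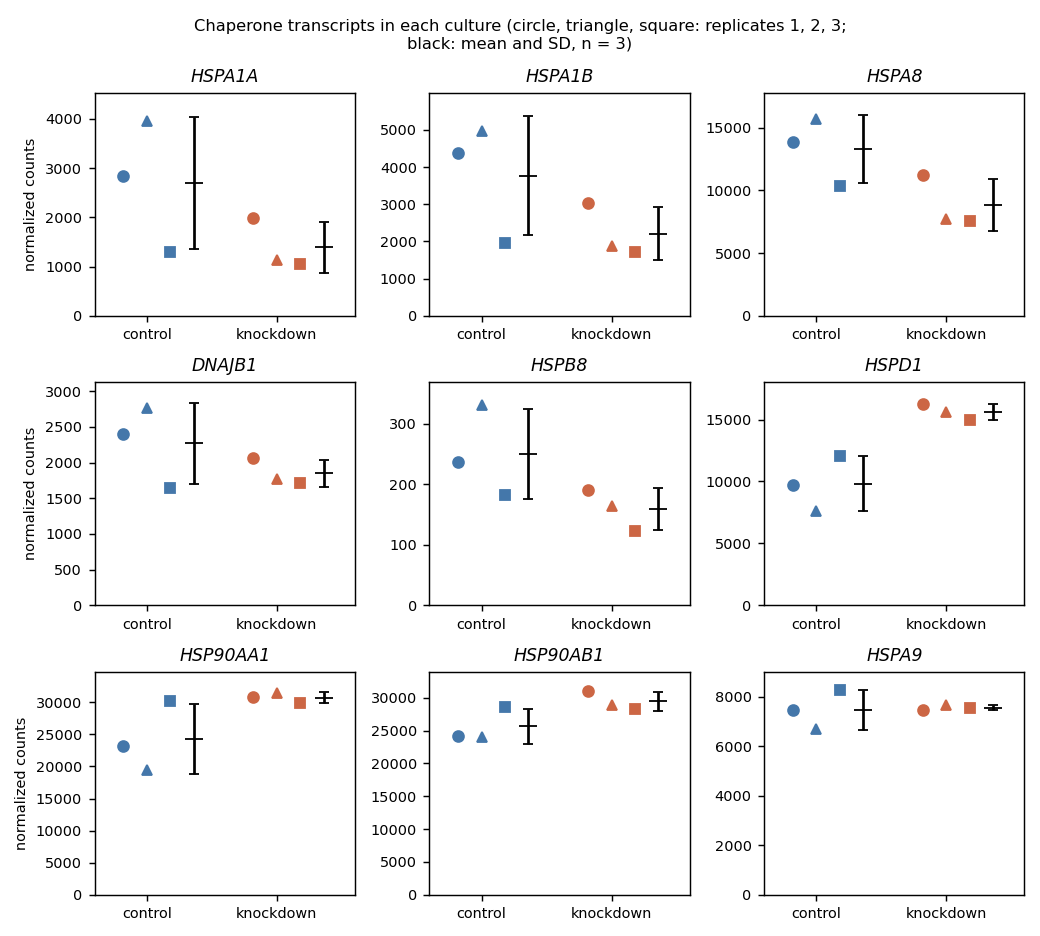
Normalized counts (y axis) of 9 chaperone genes in each control and knockdown culture (x axis), with circle, triangle and square for replicates 1, 2 and 3 and the mean and SD (n = 3) in black. Control replicate 3, the blue square, lies at or near the level of the knockdown cultures in *HSPA1A*, *HSPA1B*, *DNAJB1* and *HSP90AA1*, while in *HSPD1* it lies below all 3 of them.

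Without control replicate 3, 7 members were called lower and 8 higher by edgeR, 23.4% of the members against 13.7% of all genes tested. The 7 lower genes were *HSPA1A*, *HSPA1B*, *HSPA1L*, *HSPA8*, *HSPB8*, *DNAJB1* and *DNAJB2*. Higher were *HSP90AA1*, *HSP90AB1*, *HSPD1*, *CCT5*, *CCT6A*, *DNAJB12*, *DNAJC10* and *DNAJC30*. In that fit the log2 fold changes were -1.28 for *HSPA1A* (edgeR adjusted p of 0.028) and -1.07 for *HSPA1B* (edgeR adjusted p of 0.020). Over 14 alternative settings, the log2 fold change of *HSPA1A* lay between -1.30 and -0.57, was smallest in size without control replicate 2 (edgeR adjusted p of 0.56) and was called without control replicate 3 alone. Leaving out knockdown replicate 2 left 0 members called, beside 3.55% of all genes tested. Leaving out control replicate 2 gave 3 lower (*DNAJC24*, *DNAJC27* and *HSPA4L*) and 4 higher (*DNAJB12*, *DNAJC30*, *DNAJC6* and *HSPD1*). That is 10.9% of the members, against 16.7% of all genes tested. Without knockdown replicate 1 only *HSPA8* was called, without knockdown replicate 3 only *HSPD1*, and without control replicate 1 only *HSPE1*. In each of these fits that is 1.56% of the members, against 3.92%, 3.51% and 4.44% of all genes tested in turn. The share called among members exceeded that among all genes in 2 of the 14 settings.

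**Figure D2:**
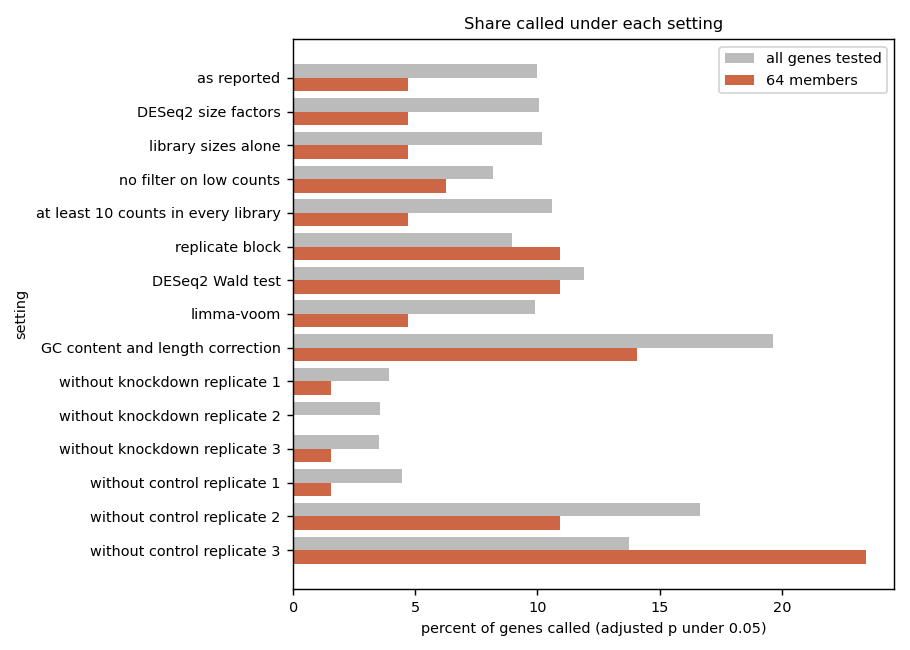
Percent of genes called at an adjusted p under 0.05 (x axis) among all genes tested (grey) and among the 64 members (red) under each setting (y axis). The members reach 23.4% without control replicate 3 and 0 without knockdown replicate 2, against 4.69% with all 6 cultures. All genes tested stand at 13.7%, 3.55% and 10% in the same settings.

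HSP110 genes, whose products release nucleotide from HSP70, moved little. *HSPA4*, the most counted of them, had 4814, 4814 and 4836 normalized counts in the knockdown cultures and 5047, 4221 and 5324 in the controls. Its log2 fold change of -0.01 (standard error 0.10, edgeR adjusted p of 0.95) became 0.06 without control replicate 3. *HSPH1*, a heat shock gene, had a log2 fold change of 0.05, with a 95% interval of -0.17 to 0.27. *HSPA4L* had 1014, 1005 and 932 normalized counts after knockdown and 1421, 1018 and 1247 in the controls. Its groups did not overlap, though knockdown replicate 1 and control replicate 2 nearly met, and the fold change on the log2 scale was -0.32 (edgeR adjusted p of 0.12). It was -0.44 without control replicate 2 (edgeR adjusted p of 0.0046) and -0.20 without control replicate 1 (edgeR adjusted p of 0.33).

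Both cytosolic HSP90 genes had positive log2 fold changes, and neither was called. *HSP90AA1* (chromosome 14, 102080742 to 102139699, minus strand), the inducible form, had 30844, 31508 and 29873 normalized counts in knockdown replicates 1, 2 and 3. Its controls had 23199, 19476 and 30184, so that control replicate 3 reached the level of the knockdown cultures. Between groups, the log2 fold change was 0.34 (standard error 0.14, edgeR adjusted p of 0.14) with all cultures, 0.53 (adjusted p of 0.0080) without control replicate 3 and 0.20 (adjusted p of 0.17) without control replicate 2. *HSP90AB1* (chromosome 6, 44246166 to 44253888, plus strand), the constitutive form, had 31038, 28944 and 28263 normalized counts after knockdown and 24197, 24039 and 28613 in the controls. Again control replicate 3 overlapped with the knockdown cultures, and the log2 fold change was 0.20 (standard error 0.10, edgeR adjusted p of 0.23, and 0.0498 without control replicate 3). As counts per kilobase of the longest transcript, scaled to the library (CPM per kilobase), *HSP90AB1* (683) and *HSP90AA1* (521) had the highest levels of all members, followed by *HSPD1* (333), *HSPA8* (319) and *CCT7* (317).

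Among small heat shock protein genes, 4 were measured and 0 were called by edgeR, with 2 at an unadjusted p under 0.05. Over all genes tested, edgeR called 10%, and 26.9% had such a p. *HSPB1*, the ubiquitous small heat shock protein HSP27, had 485, 407 and 453 normalized counts in the knockdown cultures and 375, 829 and 444 in the controls. The log2 fold change of -0.30 (standard error 0.27, edgeR adjusted p of 0.52) rested on control replicate 2 and was 0.13 without it. *HSPB8* acts with *BAG3* in the removal of misfolded protein by autophagy and was named after its values were seen. It had 190, 165 and 122 normalized counts after knockdown and 237, 331 and 183 in the controls, with control replicate 3 just below knockdown replicate 1. On the log2 scale the change was -0.65 (standard error 0.23, edgeR adjusted p of 0.090), and the adjusted p was 0.039 in DESeq2 and 0.029 without control replicate 3. Without control replicate 2 the change was -0.40 (edgeR adjusted p of 0.16). *HSPB11*, the gene for the ciliary transport subunit, had a log2 fold change of -0.30 (edgeR adjusted p of 0.11) with no overlap between groups.

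*HSPD1* (chromosome 2, 197486584 to 197516737, minus strand) encodes HSP60, the folding chamber of the mitochondrial matrix. It had 16240, 15644 and 14990 normalized counts in knockdown replicates 1, 2 and 3 and 9699, 7636 and 12083 in control replicates 1, 2 and 3. Every knockdown culture was above every control. The mean was 15625 ± 625 after knockdown and 9806 ± 2225 in the controls (SD, n = 3), and the log2 fold change was 0.67 (standard error 0.14, 95% interval 0.36 to 0.98, edgeR adjusted p of 0.013). In the fits without knockdown replicate 1, without knockdown replicate 2 or without control replicate 1 the adjusted p was 0.066, 0.054 and 0.061, with log2 fold changes between 0.64 and 0.67. *HSPA9*, the HSP70 of the same compartment, had 7471, 7674 and 7535 normalized counts after knockdown and 7445, 6680 and 8262 in the controls. Its log2 fold change was 0.02 (standard error 0.10, 95% interval -0.19 to 0.23). The ratio of *HSPD1* to *HSPA9* normalized counts was 1.99 to 2.17 in the knockdown cultures and 1.14 to 1.46 in the controls.

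*HSPE1* (chromosome 2, 197500140 to 197503449, plus strand), the lid of the HSP60 chamber, starts beside *HSPD1* on the opposite strand and was counted at a far lower level. Its values were 51.1, 55.3 and 32.2 normalized counts after knockdown and 50.0, 115 and 88.5 in the controls, with control replicate 1 among the knockdown values. The log2 fold change was -0.87 (standard error 0.31, edgeR adjusted p of 0.10), opposite in sign to that of *HSPD1*, and its adjusted p was 0.0495 without control replicate 1. Without control replicate 2 it was -0.58 (edgeR adjusted p of 0.20). Exons of the readthrough gene *HSPE1-MOB4* cover 192 of its 1823 annotated exon bases on the same strand, and that gene and *MOB4* were counted at 0 to 4 in every culture. The treatment of reads that fall on more than one gene is not given in the sources used here, so the level of *HSPE1* is uncertain, and the part of this overlap in its fold change was not tested. *HSPA13*, of the endoplasmic reticulum, had a log2 fold change of -0.14.

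The CCT ring is built of 8 different subunits, and the 7 among the members had log2 fold changes from -0.20 for *CCT8* to 0.27 for *CCT5*. EdgeR called 0 of them and DESeq2 0, and these 2 genes had an unadjusted p under 0.05 in edgeR. Over all genes tested, edgeR called 10%, and 26.9% had such a p. The eighth subunit, *TCP1*, had a log2 fold change of -0.08 (standard error 0.09, edgeR adjusted p of 0.63). *CCT7*, the most counted subunit among the members, had 10168, 9330 and 9050 normalized counts after knockdown and 8818, 10807 and 9915 in the controls, a log2 fold change of -0.05 that became 0.02 without control replicate 2. *CCT8*, named like *CCT5* after the values were seen, had 6678, 6687 and 6145 normalized counts in the knockdown cultures and 7273, 7697 and 7494 in the controls. *CCT5* went the other way, with 10054, 9649 and 9253 after knockdown and 7200, 7942 and 8935 in the controls. In both genes the groups did not overlap, and the edgeR adjusted p was 0.15 for *CCT8* and 0.11 for *CCT5*. Annotated exons of a noncoding RNA on the opposite strand cover 30.8% of the exon bases of *CCT5*, and the strand setting of the counting is not given in the sources used here. Summed over the 7 subunits, the ring had 47022 to 51083 normalized counts in the knockdown cultures and 44907 to 50687 in the controls.

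J proteins form the largest group, with 37 members. EdgeR called 2 higher and 0 lower, or 5.41%, against 10% of all genes tested. In edgeR, 9 had an unadjusted p under 0.05, beside 26.9% of all genes tested, and DESeq2 called *DNAJB2* lower. The log2 fold change was below 0 in 21 of the 37 and above 0 in 16, with a median of -0.04. *DNAJB12* (chromosome 10, 72332830 to 72355149, minus strand) helps to hand membrane proteins to the degradation machinery of the endoplasmic reticulum. It had 1172, 1208 and 1168 normalized counts in the knockdown cultures and 778, 878 and 965 in the controls. All 3 knockdown values were above the controls, and the log2 fold change was 0.44 (standard error 0.10, 95% interval 0.21 to 0.66, edgeR adjusted p of 0.021). Its adjusted p was 0.0752, 0.105 and 0.0915 without knockdown replicate 1, 2 or 3 and 0.0755 without control replicate 1.

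*DNAJC30* (chromosome 7, 73680918 to 73683453, minus strand) encodes a J protein of the inner mitochondrial membrane that is linked to the respiratory chain. Its normalized counts were 308, 268 and 289 after knockdown and 156, 206 and 187 in the controls, again without overlap. The log2 fold change was 0.65 (standard error 0.15, 95% interval 0.33 to 0.97, edgeR adjusted p of 0.017). The adjusted p was 0.0849, 0.0557 and 0.0782 without knockdown replicate 1, 2 or 3 and 0.0671 without control replicate 1, with log2 fold changes from 0.55 to 0.70. The other 5 mitochondrial J proteins were not called.

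*DNAJA1* and *DNAJB1* are the main J proteins that serve HSP70 in the cytosol, and both belong to the heat shock list. *DNAJA1*, the most counted J protein of class A, had 4534, 3935 and 3905 normalized counts after knockdown and 3928, 3692 and 3848 in the controls (log2 fold change 0.11, edgeR adjusted p of 0.47). *DNAJB1*, the HSP40 gene, had 2065, 1767 and 1721 after knockdown and 2397, 2763 and 1651 in the controls. Control replicate 3 lay just below the knockdown values, and the log2 fold change was -0.30 (standard error 0.16, edgeR adjusted p of 0.28) or -0.47 (adjusted p of 0.021) without it. Without control replicate 2 it was -0.13 (edgeR adjusted p of 0.54). *DNAJB2*, a J protein that binds ubiquitin and was named after its values were seen, had 396, 340 and 400 normalized counts after knockdown and 531, 604 and 434 in the controls. Its groups did not overlap, and the log2 fold change was -0.47 (standard error 0.14, edgeR adjusted p of 0.059, and 0.030 in DESeq2). *DNAJB2* was called in 4 of the 14 alternative settings and not in the other 10. With 1 culture left out its log2 fold change ran from -0.58 to -0.35.

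*DNAJC10*, a reductase of the endoplasmic reticulum and the most counted J protein of class C, had 3271, 3769 and 3662 normalized counts in the knockdown cultures. Its controls had 2641, 1911 and 3235, the highest of them just below the lowest knockdown value. On the log2 scale the change was 0.46 (standard error 0.16, edgeR adjusted p of 0.096), and the adjusted p was 0.032 in DESeq2 and 0.014 without control replicate 3. Without control replicate 2 the change was 0.28 (edgeR adjusted p of 0.055). Of the 25 class C members, 9 had groups without overlap, 6 lower and 3 higher, and of the 9 class B members 5 did, 3 lower and 2 higher, beside 32.2% of all genes tested. Of the 3 class A members, *DNAJA2* alone had groups without overlap.

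Heat shock factor 1 itself, a companion gene, was level between groups. *HSF1* had 951, 901 and 858 normalized counts after knockdown and 810, 1043 and 857 in the controls, a log2 fold change of 0.00 in size (standard error 0.11) whose sign changed between settings. *HSF2* had a log2 fold change of -0.13 (edgeR adjusted p of 0.50). Of the 13 members on the list of heat shock factor 1 targets, 12 were measured, *HSPA6* being under the minimum with 1 to 9 counts. Among those 12, edgeR called 0 lower and 1 (*HSPD1*) higher, 5 had an unadjusted p under 0.05 (over all genes tested, 10% were called and 26.9% had such a p), DESeq2 called *HSPA8* lower, and the log2 fold change was below 0 in 7 and above 0 in 5, with a median of -0.30 and values from -0.95 to 0.67. Among 7 tested companions of the list, *CHORDC1* was lower, *AHSA1* was higher, and *BAG3*, *STIP1*, *FKBP4*, *SERPINH1* and *CACYBP* were not called. *BAG3* had 1167, 1114 and 1010 normalized counts after knockdown and 1286, 1496 and 1192 in the controls, with no overlap and a log2 fold change of -0.27 (standard error 0.11, edgeR adjusted p of 0.13), or -0.18 (adjusted p of 0.22) without control replicate 2.

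**Figure D3:**
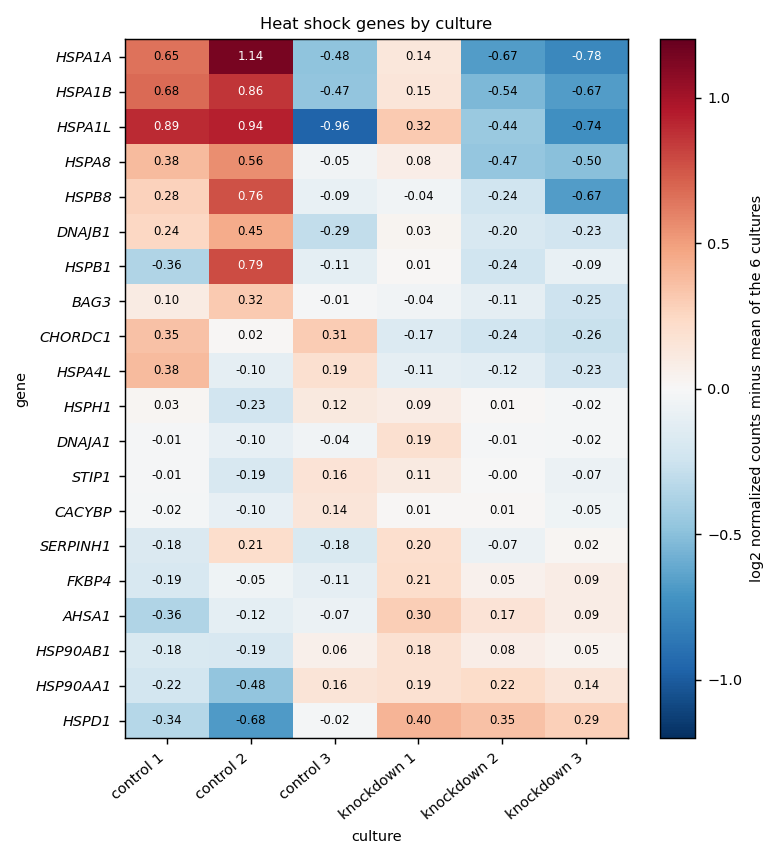
Log2 normalized counts of heat shock genes (y axis) in each culture (x axis), given as the difference from the mean of the 6 cultures and shown as color and number. *HSPA1A* stands at 1.14 in control 2 and at -0.48 in control 3, and *HSPD1* stands between 0.29 and 0.40 in the knockdown cultures.

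The element of 3 units stood before genes with fold changes of both signs, from -0.59 in *HSPA8* and -0.46 in *CHORDC1* to 0.34 in *HSP90AA1* and 0.67 in *HSPD1*. Of these, only *CHORDC1* and *HSPD1* were called. The *HSPD1* window, chr2:197500001-197500090, also lies before the annotated start of *HSPE1* at 197500140 on the plus strand (log2 fold change -0.87). The RefSeq promoter searched for *HSPE1* held no such element, but the start it was built on is not given here. That result therefore does not show that the sequence before the annotated start lacks the element. The run in the *HSPD1* window lies in that sequence.

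Among 60 companion genes listed for their work with these chaperones, 58 were tested, of which 2 were lower and 7 higher, or 15.5%, against 10% of all genes tested (4.64% lower and 5.40% higher). The list was chosen with earlier results of these data known, so these shares cannot show an excess among companions. *NUDCD3*, a NudC-type co-chaperone (chromosome 7, 44379119 to 44490658, minus strand), had 1580, 1492 and 1582 normalized counts after knockdown and 778, 854 and 879 in the controls. The log2 fold change was 0.89 (standard error 0.09, edgeR adjusted p of 0.00024), above that of every member. *UNC45A*, which helps HSP90 to fold myosin, had 2813, 2294 and 2310 normalized counts after knockdown and 1323, 1575 and 1572 in the controls (log2 fold change 0.73, standard error 0.11, edgeR adjusted p of 0.0022). Exons of *HDDC3* on the opposite strand cover 17.8% of its exon bases. *TOMM34*, which binds HSP70 and HSP90 on the way to mitochondrial import, had 1346, 1251 and 1238 after knockdown and 836, 832 and 957 in the controls (log2 fold change 0.55, edgeR adjusted p of 0.0058). These 3 genes were called under all 14 alternative settings.

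*FKBP5*, an HSP90 partner in steroid receptor complexes, had 2294, 2354 and 2395 normalized counts after knockdown and 1309, 1092 and 1790 in the controls. The change was 0.75 on the log2 scale (standard error 0.15, edgeR adjusted p of 0.0097, and 0.056 without control replicate 1). *NUDC* had a log2 fold change of 0.69 (edgeR adjusted p of 0.013), which lost its call without knockdown replicate 1 (0.069) or 2 (0.062). *AHSA1*, the activator of the HSP90 ATPase, had a log2 fold change of 0.37 (edgeR adjusted p of 0.045), and *PDCL3*, a phosducin-like partner of the CCT ring, one of 0.56 (edgeR adjusted p of 0.042). In all 7 genes the 3 knockdown values were above the 3 control values. *AHSA1* and *PDCL3* were not called when any 1 knockdown culture or control replicate 1 was left out, with adjusted p from 0.103 to 0.172 for *AHSA1* without 1 knockdown culture and 0.132 for each gene without control replicate 1. The corresponding values of *PDCL3* ran from 0.0931 to 0.155.

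*CHORDC1* (chromosome 11, 90200429 to 90223077, minus strand), an HSP90-binding protein, was lower, with 1341, 1273 and 1255 normalized counts after knockdown and 1924, 1524 and 1863 in the controls. It differed by -0.46 on the log2 scale (standard error 0.10, edgeR adjusted p of 0.018), and the adjusted p was 0.0598 to 0.0994 without any 1 knockdown culture and 0.0743 without control replicate 1. *PFDN1*, a subunit of prefoldin, which carries new chains to the CCT ring, was the other lower gene. It had 870, 943 and 829 normalized counts after knockdown and 1065, 1174 and 1111 in the controls (log2 fold change -0.34, standard error 0.10, edgeR adjusted p of 0.045), and it was called in 8 of the 14 settings. It lost its call without any 1 knockdown culture (adjusted p of 0.108 to 0.22) and without control replicate 1 (0.0763) or 3 (0.0597). All 6 prefoldin genes had negative log2 fold changes, with a median of -0.33 against -0.02 over all genes tested, and *PFDN1* was the only one called. Near 0 lay *PFDN2*, at -0.08 (standard error 0.14), and *PFDN6*, at -0.09 (standard error 0.18). In *PFDN1*, *PFDN4* and *VBP1* the knockdown values lay wholly below the controls, as they did in 15.8% of all genes tested.

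**Figure D4:**
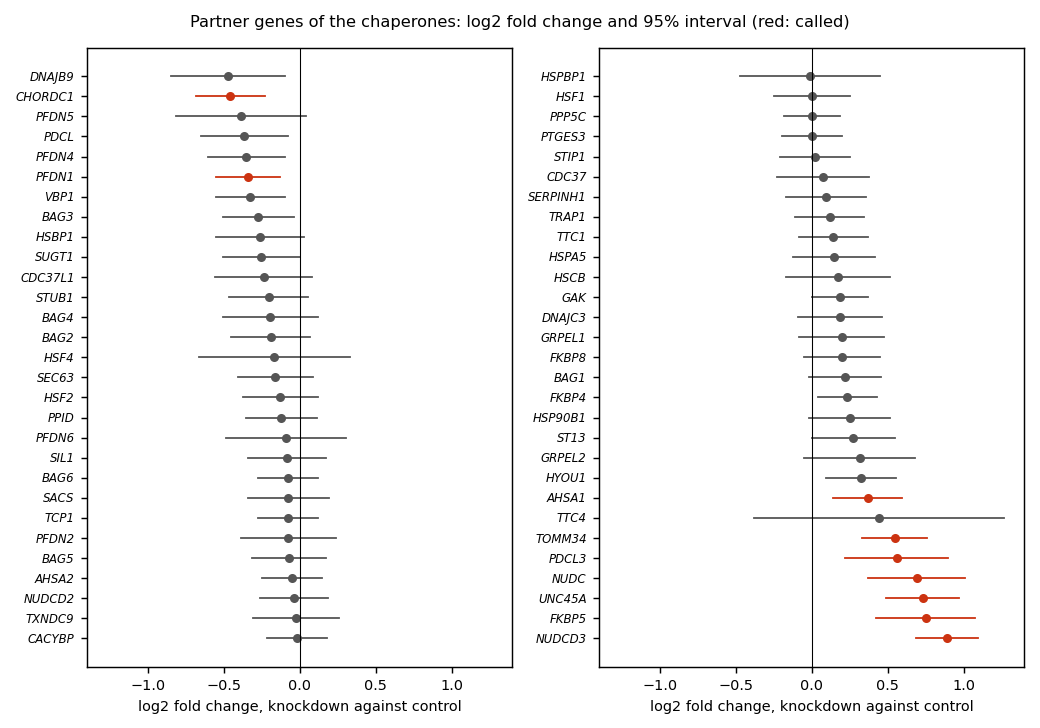
Log2 fold change (x axis, knockdown against control) with its 95% interval from edgeR for the 58 tested companion genes (y axis), called genes in red. The 7 called on the positive side run from *AHSA1* at 0.37 to *NUDCD3* at 0.89, and the 2 called on the negative side are *CHORDC1* and *PFDN1*.

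The genes left out of the members by their rule were not called, and 10% of all genes tested were. *HSPA5*, the HSP70 of the endoplasmic reticulum, had a log2 fold change of 0.14, *DNAJC3* one of 0.19 and *DNAJB9* one of -0.47 (edgeR adjusted p of 0.10). Of these genes, *DNAJB9* alone had groups without overlap, beside 32.2% of all genes tested.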

How the data were processed

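RNA-seq was measured in 6 HEK293 cultures, 3 per group. The authors deposited raw read counts per gene, not normalized. The submitters' processing notes name FastQC 0.11.9, Trim Galore 0.6.6, STAR 2.7.9a, featureCounts 2.0.1 and hg38, and the study's methods also name removal of ribosomal RNA with SortMeRNA. The annotation, strand setting and handling of reads on several genes or places are not given in the sources used here. Libraries were stranded and made from polyadenylated RNA.

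The filterByExpr function kept 14877 genes, and these were scaled by TMM before the robust quasi-likelihood F test of edgeR 4.0.16 in R 4.3.3. Adjustment was by Benjamini-Hochberg over all genes tested, with calls at an adjusted p under 0.05. A normalized count is a count scaled by its library's effective size to the mean of the 6 effective sizes. Biological variation between cultures was 12.4%. With totals of 13900965 to 16869948 counts, standard errors of the members' log2 fold changes ran from 0.081 to 0.45. Each p value sets the difference between groups against the spread between these cultures of a single cell line.

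The members and all lists were chosen with earlier results of these data known. Named were every called member, the heat shock factor 1 list, the most counted member of each role, the CCT subunits as a range, called companions, *HSF1*, *HSF2*, *TCP1* and *BAG3*, and further genes where the text says that they were named after their values were seen. *HSPA9*, *HSPA13*, *HSPA5*, *DNAJB9*, *DNAJC3*, *DNAJA4*, *HSPA12B* and the overlapping or copied genes were also added after their values were seen, and other genes are listed without a value of their own.

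Names were matched to GENCODE release 44 (23161 by symbol, 1372 through a synonym, 1952 unmatched) for positions, exons, GC content and length. Promoters, 250 bases before to 50 after a start, came from RefSeq. The alternatives were scaling by DESeq2's size factors, scaling by library size alone, no filter, at least 10 counts in every library, the replicate number as a block, the DESeq2 1.42.0 Wald test, limma-voom (limma 3.58.1), a correction for GC content and length (loess, span 0.3, available for 97.3% of genes) and each culture left out in turn. Summing *HSPA1A* and *HSPA1B* was added after seeing the data. Replicate numbers did not pair the cultures. Figures were drawn with matplotlib 3.10.9.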

Additional observations from a re-analysis of the deposited data

How the results depend on the processing

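Over all genes tested, the numbers of 690 lower and 804 higher genes kept within 1.5 times under the other normalizations, filters and tests, and rose to 1517 and 1326 with the correction for GC content and length. Members called lower, 0 in the reported fit, numbered 1 with no filter, 3 with the DESeq2 Wald test and 4 with that correction. Members called higher numbered 5 with that correction. In either direction, no filter called 6.25% of the members against 8.17% of all genes tested. The DESeq2 Wald test called 10.9% against 11.9%, and the correction 14.1% against 19.6%. With 1 culture left out, 233 to 1238 of all genes were lower and 289 to 1274 higher. In these fits 0 to 7 members were lower and 0 to 8 higher, and 0 to 7 companions were lower and 4 to 10 higher. Members without overlap then numbered 12 to 22 below and 8 to 13 above the controls. Groups of 2 and 3 separate more easily than 3 and 3, and the share over all genes was not taken there. These numbers are therefore no result about the members. The replicate block called 3 members lower (*HSPA1B*, *HSPA8* and *HSPB8*) and 4 higher, or 10.9% against 8.96% of all genes tested. It called 1 companion lower. Correlations of same-numbered cultures' deviations were -0.18, -0.09 and -0.04, no culture matched its own number best, and the pairing by number is a shared label. The summed share differed by 0.044 percentage points without *HSP90AB1*. Log2 fold changes that turned sign when 1 culture was left out ran from -0.51 to 0.13 in *HSPB1*, -0.047 to 0.13 in *HSPH1* and -0.12 to 0.023 in *CCT7*, turning without control replicate 2, and from -0.11 to 0.063 in *HSPA4*, turning without control replicate 1 (0.015) or 3. *HSF1*, at -0.00 as reported, was 0.0039 with DESeq2's size factors, 0.0093 with library sizes alone, 0.0058 with at least 10 counts in every library, 0.0067 with the replicate block, 0.0038 in DESeq2, 0.0046 in limma-voom, 0.014 with the GC and length correction, and 0.0023, 0.037 and 0.12 without knockdown replicate 2, knockdown replicate 3 or control replicate 2, with -0.073 the lowest when 1 culture was left out. The causes were not tested. The widest intervals among members were those of *HSPA1A*, *HSPA1L*, *DNAJB13* and *HSPA1B*, of which *HSPA1L* and *DNAJB13* had few counts.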

Other observations

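The ratio of *HSP90AA1* to *HSPA8* normalized counts was 2.74, 4.08 and 3.96 in knockdown replicates 1, 2 and 3 and 1.67, 1.24 and 2.92 in control replicates 1, 2 and 3. The lowest knockdown ratio thus lay below that of control replicate 3. *DNAJA4*, a J protein gene under the minimum of 10 counts, had 18, 24 and 25 counts after knockdown and 28, 33 and 5 in the controls. *HSPA12B*, under the same minimum, had 10, 17 and 22 counts after knockdown and 4, 10 and 14 in the controls. The pseudogenes *CCT6P1* and *CCT6P3* were counted at 232 to 346 and 74 to 95 in every culture beside *CCT6A*, whose sequence they share in part.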
